A study of Mus musculus with 16 samples.

Results

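The Notch pathway is described here through 10 genes: the receptors Notch1, Notch2, Notch3 and Notch4, the ligands Dll1, Dll4, Jag1 and Jag2, and the target genes Hes1 and Hey1. They were taken by symbol, for their part in the fate of marginal zone B cells and of mural cells, the contractile cells that wrap blood vessels. All 10 symbols had 1 row each among the 54838 genes of the count table, and all 10 passed the filter on low counts. RNA was sequenced from spleens of C57BL/6 mice in 16 samples, and the study asked which genes are enriched in spleen glia over the whole organ. For the size-selected group, tissue was digested with enzymes including Dispase II, red blood cells were lysed, and what stayed on a cell strainer was lysed for RNA. The labels call the source of this group spleen glia. They give the same extraction text for the whole spleen group, so how whole spleen was prepared is not told separately. Each group holds 8 samples with the numbers 407, 408, 427 and 435 (male) and 436, 445, 447 and 460 (female). No genotype, treatment or age is given for either group, and no statement says that each sample is 1 animal, so the p-values measure the spread between these samples.

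Notch receptors are single-pass membrane proteins that are activated by Delta-like and Jagged ligands on a neighbouring cell. Binding leads to cleavage by an ADAM protease and then by the gamma-secretase complex, and the freed intracellular domain joins the DNA-binding protein Rbpj and a Mastermind coactivator to switch on targets such as the Hes and Hey repressors. In the spleen, signalling from Dll1 on stromal cells to Notch2 on B cells is required for marginal zone B cells, while Notch3 is known as a receptor of vascular smooth muscle cells and pericytes, and Dll4 and Notch4 are known from blood vessel endothelium.

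The stretches upstream of 4 genes are shown because their RNA spans the range of differences found below: Notch2 did not pass the test between fractions, Notch3 rose the most of the 10, Dll4 was the most abundant ligand in size-selected samples, and Hey2 is a Hey family target with a match to the Rbpj core motif. RefSeq promoter entries on GRCm38.p6 were found for the 4 receptors and the 4 ligands but not for the targets Hes1 and Hey1, which are not analysed here by sequence, and the 250 bases before each start were searched for TGGGAA (the Rbpj core) and GGGCGG (the GC box) on both strands. Capitals mark either motif, so that TTCCCA and CCGCCC are matches on the other strand, and none of the matches marked in these 4 stretches overlaps one of the other motif. The stretches end at the RefSeq start or, where the GENCODE gene reaches further upstream, at the edge of that gene, and lie at chr3:98013288-98013526 (plus strand), chr17:32166891-32167140 (minus strand), chr2:119325534-119325783 (plus strand) and chr10:30842802-30843033 (minus strand), each printed 5′ to 3′ in the direction of its gene.
Notch2: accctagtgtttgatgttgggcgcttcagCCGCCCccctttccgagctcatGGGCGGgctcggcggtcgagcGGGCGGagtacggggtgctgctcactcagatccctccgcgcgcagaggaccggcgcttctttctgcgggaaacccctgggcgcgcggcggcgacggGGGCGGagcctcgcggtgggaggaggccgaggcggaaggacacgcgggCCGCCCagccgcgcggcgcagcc
Notch3: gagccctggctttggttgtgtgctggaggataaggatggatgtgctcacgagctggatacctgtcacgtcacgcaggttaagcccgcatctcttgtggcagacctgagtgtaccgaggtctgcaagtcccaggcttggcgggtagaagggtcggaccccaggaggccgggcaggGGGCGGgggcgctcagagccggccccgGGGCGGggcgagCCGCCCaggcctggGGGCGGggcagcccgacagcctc
Dll4: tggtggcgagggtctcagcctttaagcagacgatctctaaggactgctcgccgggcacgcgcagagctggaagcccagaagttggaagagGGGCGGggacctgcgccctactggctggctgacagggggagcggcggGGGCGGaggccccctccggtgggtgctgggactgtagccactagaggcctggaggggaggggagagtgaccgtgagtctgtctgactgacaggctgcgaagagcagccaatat
Hey2: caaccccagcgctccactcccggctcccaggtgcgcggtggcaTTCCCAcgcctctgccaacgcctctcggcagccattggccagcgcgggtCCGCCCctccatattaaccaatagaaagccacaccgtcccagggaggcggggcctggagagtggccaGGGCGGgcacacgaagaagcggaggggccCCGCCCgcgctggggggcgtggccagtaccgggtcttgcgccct
None of the windows of these 8 receptors and ligands held TGGGAA, which occurs in 21.6% of 32851 windows of the same length, and none held the E-box CACGTG, which occurs in 6.02%. The Hey2 window held TGGGAA on the other strand, starting 207 bases before its RefSeq start. The search also covered 15 further pathway genes, those named by the rule in the methods, and 4 of the 13 with a window held it: Hey2, Rbpj, Maml3 and Ncor1, of which Hey2 and Maml3 were called higher, Ncor1 lower and Rbpj neither. A GC box was present in the windows of 5 of the 8 members, against 32.7% of all windows, with 5 in Notch2, 4 in Notch3 and 2 in Dll4. The Notch4 window had none, and held 4 CpG dinucleotides where that of Notch2 held 34. These matches describe letters in a window and are no evidence of binding.

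Library totals ran from 13119992 to 19944440 estimated counts in the size-selected group and from 12153770 to 16282454 in whole spleen. Levels below are CPM (counts scaled to a common library size) after TMM scaling, fold changes are from edgeR's quasi-likelihood test on all genes, and a call is a Benjamini-Hochberg adjusted p under 0.05. In the size-selected columns the counts of 3898 genes, among them Notch4, Dll1, Dll4 and Jag2, are 2-decimal values multiplied by constants below 1, so for these 4 genes a second fold change after division by the constants (restored counts) is given. Of 14510 genes tested, 37.5% were called higher after size selection and 30.4% lower. Vessel and stromal markers were higher as a whole: all 11 mural markers (Acta2, Tagln and Myh11 among them), all 12 endothelial markers (Pecam1, Cdh5, Kdr) and all 11 fibroblastic markers (Pdgfra, Pdpn, Dcn) were called higher, and 6 of 7 B cell markers (Cd79a and Cd79b among them) and 7 of 8 T cell markers (Cd3d, Cd3e, Cd3g) were called lower. The summed mural level was 1074 to 4452 CPM against 23.1 to 93.6 in whole spleen, and the summed endothelial level 1177 to 3018 against 117 to 313. For the labelled cell type, the 7 of 10 glial markers that could be tested (S100b among them) were all called higher, and the defining factor Sox10 did not pass the count filter, with medians of 3.75 CPM and 0 in whole spleen. The summed glial level was 75.4 to 527 CPM against 2.44 to 9.30. Of the 12 genes of a dissociation response list (Fos, Fosb, Jun), 9 were called higher and 1 lower, and 9 higher and 0 lower on restored counts, with sums of 5587 to 10389 against 3064 to 4341 CPM.

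Of the 10 Notch genes, 9 were called higher and 0 lower after size selection. The group ranges did not overlap for these 9 genes, which was the case with the same direction for 23.3% of all genes tested. It follows from the separate ranges that each of the 9 was also higher in 8 of 8 pairs of samples with the same number. The median log2 fold change of the 10 genes was 3.95, against 0.05 over all genes tested. On the log2 scale a rise of 4 or more was reached by 5 of the 10 and by 8.15% of all genes, and of 5 or more by 2 of the 10 and by 5.08%. In bulk RNA, more cells of a type and more RNA per cell cannot be told apart. Markers of further cell types moved in the same contrast: 6 of 6 mesothelial genes (median log2 fold change 5.94), 6 of 6 megakaryocyte genes (1.62) and 5 of 8 macrophage genes (0.57, with 7 of 8 under the number as a replicate block and 6 of 8 on restored counts) were called higher, and 6 of 6 neutrophil genes lower (-1.73). The dendritic cell list was mixed (2 of 8 higher, 3 lower), and 1 of 5 erythroid genes was lower, or 4 of 5 with the number as a replicate block. On the dendritic cell list Zbtb46 (1.87) and Esam (4.01) were higher, and Flt3 (-0.89), Xcr1 (-0.63) and Clec9a (-1.15) lower. These genes are named here after their values were seen. The part of these lists and of the mural, endothelial, fibroblastic, glial, lymphocyte and dissociation lists given above in the differences of the Notch genes was not tested.

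**Figure D1:**
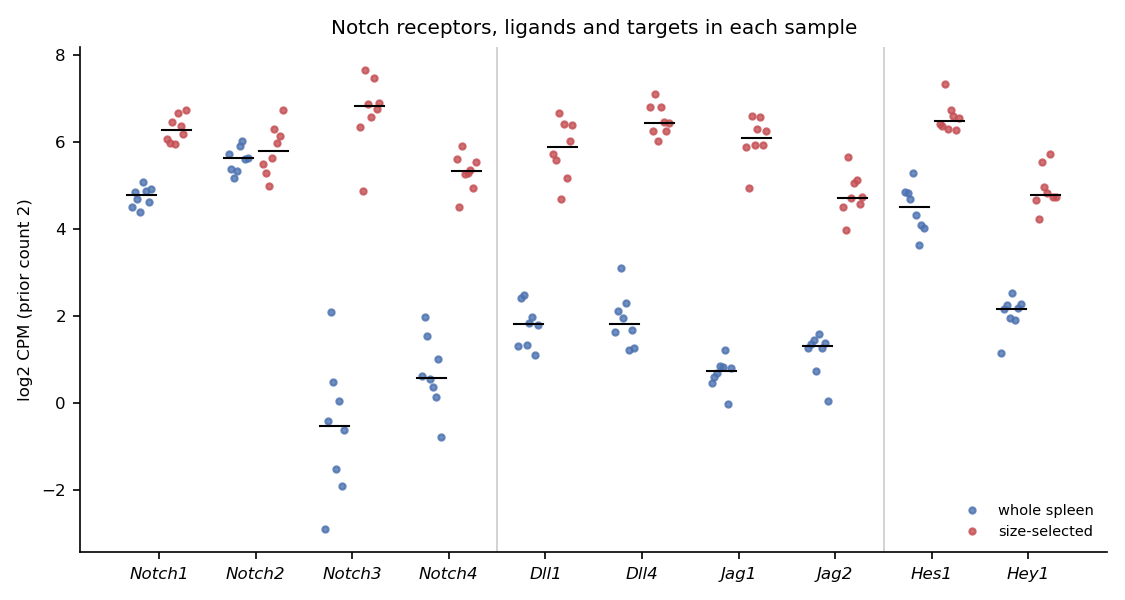
Level of each gene in each of the 16 samples, as log2 CPM with a prior count of 2 (vertical axis), by gene (horizontal axis), with whole spleen in blue, size-selected in red, points within a group in order of sample number, and a black bar at each group's median. The 2 clouds overlap only for Notch2, and whole spleen sample 427 stands above the other whole spleen samples for Notch3 and Dll4.

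The 4 receptors differed widely in how far they stood apart. Notch3, the receptor of mural cells (GRCm38 chr17:32120820-32166852), ranged from 0 to 4.16 CPM in whole spleen with a median of 0.562, and from 29.2 to 203 in the size-selected samples with a median of 113. The lowest size-selected sample, number 408, was still above the highest whole spleen sample, number 427, and in whole spleen the counts ran from 0 to 51. The means were 117 ± 54.3 and 0.973 ± 1.35 CPM (SD, n = 8 each), which edgeR put at 6.94 on the log2 scale (standard error 0.57, adjusted p = 5.53e-09). The paired log2 differences ran from 5.30 to 9.27, which is the widest spread of any of the 10 genes. The same 2 samples stand out in the mural marker sum: size-selected sample 408 had the lowest sum of its group, 1074 CPM, and whole spleen sample 427 the highest, 93.6 CPM. This is not particular to mural markers. Size-selected sample 408 was also lowest for the endothelial, mesothelial, macrophage and dendritic cell sums, and whole spleen sample 427 highest for further sums listed below. Without number 408 or 427, or without whole spleen sample 427 alone, Notch3 stayed called higher, but its log2 fold change of 6.94 moved to 7.78 without whole spleen sample 427 and to 7.63 without number 427 in both groups.

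Notch4, a receptor of endothelium (chr17:34564268-34588503), ranged from 0.450 to 3.81 CPM in whole spleen, median 1.37, and from 22.7 to 60.2 in size-selected samples, median 40.0. The groups were far apart, with whole spleen sample 408 the highest of its group and size-selected sample 408 the lowest of its own. Notch4 was 40.9 ± 11.4 against 1.72 ± 1.09 CPM (SD, n = 8 each), an edgeR log2 change of 4.58 (standard error 0.32, adjusted p = 9.9e-10), and of 4.82 on restored counts.

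Notch1, the receptor required for T cell development (chr2:26457903-26516663), ranged from 20.9 to 33.9 CPM in whole spleen, median 27.3, and from 62.1 to 106 in size-selected samples, median 77.5. Every size-selected sample lay above every whole spleen sample, with the narrowest paired spread of the 10 genes. Notch1 was 80.5 ± 17.4 against 27.0 ± 4.27 CPM (SD, n = 8 each), with an edgeR log2 change of 1.58 (standard error 0.13, adjusted p = 8.56e-09). Its rise was thus in the opposite direction to the T cell marker list, whose median log2 fold change was -1.62.

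Notch2, the receptor that marginal zone B cells need (chr3:98013527-98150361), was the exception. It ranged from 36.1 to 65.1 CPM in whole spleen, median 49.3, and from 31.5 to 108 in size-selected samples, median 56.1. The whole spleen range lay inside the size-selected range, and number 427 was the lowest in both groups. The means were 60.6 ± 24.8 and 49.3 ± 9.94 CPM (SD, n = 8 each), and the log2 difference of 0.30 (SE 0.21, edgeR adjusted p = 0.209) was within the spread, with a higher level in 4 of 8 pairs. This does not show equal levels: the paired log2 differences ran from -0.21 to 1.12.

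Markers of marginal zone B cells were mixed beside Notch2. Of the 8 genes on that list, 4 were called higher, 1 was called lower, with 2 called lower under the replicate block, and the median log2 fold change was 0.41, while the list for all B cells had a median of -1.37. The summed marginal zone level was 914 to 1320 CPM in size-selected samples and 706 to 850 in whole spleen, and the summed B cell level 904 to 3325 against 5414 to 6679. Cr2, which encodes complement receptor CD21 and is itself a Notch2 target in B cells, was 204 ± 78.5 against 198 ± 65.7 CPM (SD, n = 8 each). Cd1d1 was 47.6 ± 4.77 against 47.1 ± 4.65 CPM (SD, n = 8 each), and neither gene passed the edgeR test (adjusted p = 0.884 for Cr2 and 0.868 for Cd1d1). Cd9 was higher, at 445 ± 108 against 258 ± 55.3 CPM (SD, n = 8 each, log2 fold change 0.79, edgeR adjusted p = 0.000188, 7 of 8 pairs). Cd9 was also the largest part of the size-selected marginal zone sum, so that sum is no measure of marginal zone B cells alone. S1pr3 (1.86), Asb2 (1.29) and Myof (0.78) were also called higher. Dtx1 (-0.68) was called lower, as was Fcrl5 under the replicate block only (-0.55). These are named after their values were seen.

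All 4 ligands were higher in the size-selected samples. Dll4, a ligand of arterial and sprouting endothelium (chr2:119325784-119335962), ranged from 2.20 to 8.49 CPM in whole spleen, median 3.39, and from 64.8 to 138 in size-selected samples, median 87.5. Number 427 was the highest sample in both groups, and the groups did not overlap. Dll4 was 94.2 ± 24.1 against 3.96 ± 2.04 CPM (SD, n = 8 each), an edgeR log2 change of 4.58 (standard error 0.26, adjusted p = 1.46e-10), and of 4.99 on restored counts.

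Dll1, the ligand for Notch2 in the marginal zone niche (chr17:15367354-15376872), ranged from 2.02 to 5.47 CPM in whole spleen, median 3.40, and from 25.8 to 102 in size-selected samples, median 59.5. Its size-selected samples were spread over about as wide a range, relative to their mean, as those of Notch2 and Notch3, with number 427 the highest and 435 the lowest. Dll1 was 62.5 ± 26.3 against 3.50 ± 1.29 CPM (SD, n = 8 each), an edgeR log2 change of 4.16 (standard error 0.30, adjusted p = 1.07e-09), and of 4.40 on restored counts. The receptor Notch2 and its ligand Dll1 thus had separate outcomes in the same samples, the receptor without a call and the ligand higher in 8 of 8 pairs.

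Jag1, a ligand active in vessel walls (chr2:137081456-137116644), ranged from 0.849 to 2.20 CPM in whole spleen, median 1.54, and from 30.8 to 96.4 in size-selected samples, median 68.7. Size-selected sample 408 stood well below the other size-selected samples, of which the lowest was at 59.0 CPM. Jag1 was 70.0 ± 21.8 against 1.51 ± 0.389 CPM (SD, n = 8 each), and its edgeR log2 change of 5.53 (standard error 0.24, adjusted p = 1.53e-11) was the largest of the ligands and second to Notch3 among the 10 genes.

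Jag2, the other Jagged ligand (chr12:112907819-112929776), ranged from 0.899 to 2.88 CPM in whole spleen, median 2.35, and from 15.6 to 50.7 in size-selected samples, median 26.2. The lowest and highest size-selected samples were again 408 and 427. Jag2 was 29.1 ± 10.6 against 2.17 ± 0.643 CPM (SD, n = 8 each), an edgeR log2 change of 3.74 (standard error 0.25, adjusted p = 6.13e-10). Its counts carry the product of 2 constants, and the restored counts moved its log2 fold change to 4.46, the largest shift of the 10 genes.

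Both target genes were higher as well, by less than the ligands. Hes1, a repressor switched on by Notch in many cell types (chr16:30064384-30067796), ranged from 12.4 to 38.8 CPM in whole spleen, median 22.7, and from 77.7 to 163 in size-selected samples, median 89.6. Size-selected sample 427 stood alone at the top, the next being at 107 CPM. It also had the highest dissociation response sum, 10389 CPM, and the highest mural, endothelial, fibroblastic and dendritic cell sums. Hes1 was 98.1 ± 28.1 against 23.4 ± 8.66 CPM (SD, n = 8 each), an edgeR log2 change of 2.07 (standard error 0.21, adjusted p = 1.04e-07).

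Hey1, a related repressor of vessel development (chr3:8663359-8667256), ranged from 2.10 to 5.61 CPM in whole spleen, median 4.36, and from 18.6 to 53.2 in size-selected samples, median 27.5. The groups did not overlap, and sample 408 was the lowest of the size-selected group. Hey1 was 32.0 ± 11.7 against 4.14 ± 1.03 CPM (SD, n = 8 each), an edgeR log2 change of 2.95 (standard error 0.22, adjusted p = 2.33e-09).

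**Figure D2:**
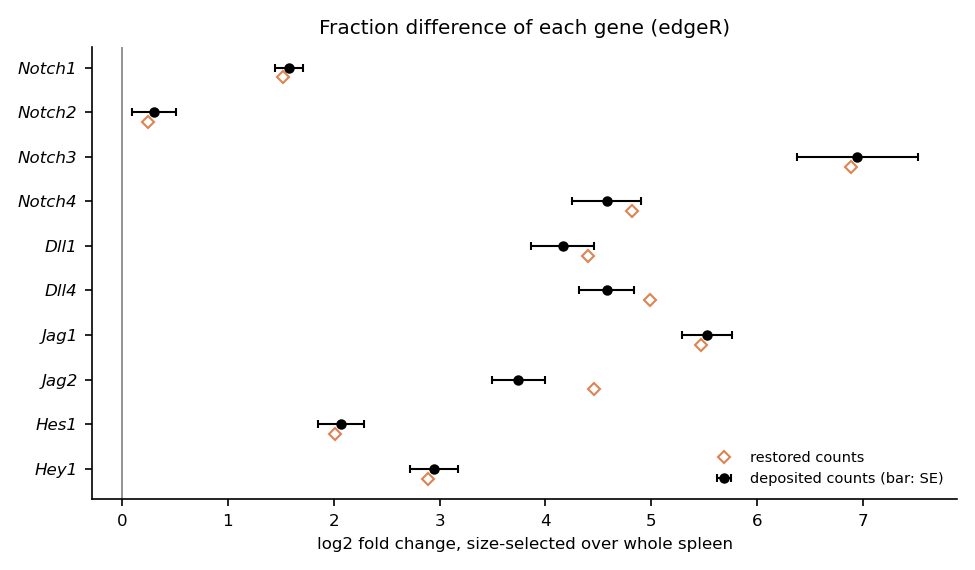
Log2 fold change of each gene between size-selected samples and whole spleen (horizontal axis) by gene (vertical axis), with black points for the deposited counts and bars for the standard error, and open diamonds for restored counts. Jag2 moves most, from 3.74 to 4.46, and Notch2 is the nearest to 0 at 0.30.

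Within the size-selected group, some samples lay at the end of the range for several of the 10 genes. Number 427 was the highest of its group for 7 of the 10 genes (Notch3, Notch4, Dll1, Dll4, Jag1, Jag2 and Hes1) and the lowest for Notch2. Number 408 was the lowest for 5 (Notch3, Notch4, Jag1, Jag2 and Hey1), and number 435 for Notch1, Dll1 and Dll4. The share of all genes with the same samples at their ends was not computed, so nothing particular to the Notch genes is read from these counts. Of the marker sums, the mural and endothelial sums were highest in 427 (4452 and 3018 CPM) and lowest in 408 (1074 and 1177 CPM), and the B cell sum was lowest in 427 (904 CPM) and highest in 408 (3325 CPM). The dendritic cell sum had the same ends as the mural sum (278 CPM in 408 and 565 in 427), and the mesothelial sum was lowest in 408 and highest in 445. Esam alone had a median of 206 CPM in size-selected samples, where the dendritic cell sum had a median of 396. That sum thus rests largely on 1 gene and does not stand for its list. Other sums had other samples at their ends: the fibroblastic sum was lowest in 435 and highest in 427, the macrophage sum lowest in 408 and highest in 460, and the glial and marginal zone B cell sums both lowest in 447 and highest in 436. In whole spleen, number 427 was again highest for Notch3, Dll1 and Dll4 and for the mural and endothelial sums, but also for the fibroblastic, glial, mesothelial, macrophage, dendritic cell, marginal zone B cell and erythroid sums. Whether these marker levels account for the order of the samples was not tested.

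Levels of different genes were compared per length, as TPM (counts per length, scaled to a common sum) computed over the exonic length of each gene. In whole spleen Hes1 was the highest at 25.0 ± 7.46 TPM (SD, n = 8), followed by Notch2 at 10.3 ± 2.58 and Notch1 at 4.25 ± 0.877. Hey1 (2.85 ± 0.798), Dll4 (2.30 ± 1.27) and Dll1 (1.86 ± 0.731) came next, and Jag2 (0.699 ± 0.227), Jag1 (0.580 ± 0.174), Notch4 (0.473 ± 0.295) and Notch3 (0.273 ± 0.393) were last. Neighbours in this order had separate mean ± SD intervals only after Hes1, after Notch2 and after Dll1. The highest 3 of the 10 were thus 1 target and 2 receptors, and the ligands lay below them.

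The order in the size-selected samples was another one. Hes1 was again first at 135 ± 31.1 TPM (SD, n = 8), but Dll4 (68.3 ± 14.0), Dll1 (41.5 ± 16.7), Notch3 (40.0 ± 17.2) and Jag1 (33.5 ± 9.64) followed. Hey1 (27.4 ± 9.06), Notch2 (16.04 ± 7.16), Notch1 (15.96 ± 3.74), Notch4 (14.1 ± 3.31) and Jag2 (11.6 ± 3.59) closed the order. Per length of the longest transcript instead, Hey1 (29.2 ± 9.69) stood above Jag1 (27.5 ± 7.97), Notch1 (18.9 ± 4.43) was seventh, and Notch2 (13.0 ± 5.78) was ninth, below Notch4. On exonic length, Hes1 and Dll4 were the only neighbours whose mean ± SD intervals did not overlap. On restored counts, an alternative for these levels that was added after the data had been seen, Dll4 rose to 86.7 ± 17.5 TPM and Jag2 to 18.3 ± 6.09, which placed Jag2 seventh, and the only separate neighbours were Dll4 and Dll1.

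The make-up of the receptors changed with the fraction. In whole spleen Notch2 took 66.9 ± 6.13% of the summed TPM of the 4 receptors (SD, n = 8), Notch1 27.9 ± 2.92%, Notch4 3.29 ± 2.24% and Notch3 1.92 ± 2.82%. In size-selected samples Notch3 took 44.7 ± 11.5%, Notch1 19.4 ± 5.30%, Notch2 19.1 ± 6.48% and Notch4 16.9 ± 3.65%. The order of the last 3 depends on the constants, since on restored counts Notch4 took 19.9 ± 3.65%, Notch1 18.7 ± 5.08% and Notch2 18.4 ± 6.25%, behind Notch3 at 43.0 ± 11.1%. The share of Notch2 ran from 55.6 to 73.4% in whole spleen and from 7.02 to 26.2% in size-selected samples, and that of Notch3 from 0 to 8.55% and from 25.0 to 60.1%, with no overlap for either. The summed receptor level was 15.3 ± 3.04 TPM in whole spleen and 86.1 ± 23.4 in size-selected samples. Since Notch2 itself did not pass the test, its smaller share goes with the higher levels of the other 3 receptors. Per length of the longest transcript, Notch3 still had the largest mean share in size-selected samples (39.6%, from 20.9 to 54.1%). Notch1 (25.3 ± 6.14%) was next, as on exonic length, but Notch4 (18.1 ± 3.68%) stood above Notch2 (17.0 ± 5.61%).

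The make-up of the ligands differed less. Dll4 took 41.1 ± 8.63% of the summed ligand TPM in whole spleen and 44.5 ± 5.06% in size-selected samples (SD, n = 8 each), and Dll1 34.2 ± 7.22% and 26.1 ± 6.75%. Jag1 went from 11.4 ± 3.97% to 21.8 ± 5.54%, and Jag2 from 13.3 ± 4.31% to 7.52 ± 1.65%. For each of the 4 ligands the ranges of the groups overlapped. On restored counts the size-selected shares were 17.0 ± 3.86% for Jag1 and 7.22 to 13.6% for Jag2, nearer to whole spleen, while Dll4 at 47.8 ± 4.53% and Dll1 at 25.2 ± 6.59% lay farther from it than on deposited counts. The ligand sum was 5.44 ± 2.00 TPM in whole spleen and 155 ± 36.0 in size-selected samples, so that the ligand sum lay below the receptor sum in whole spleen and above it in size-selected samples.

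**Figure D3:**
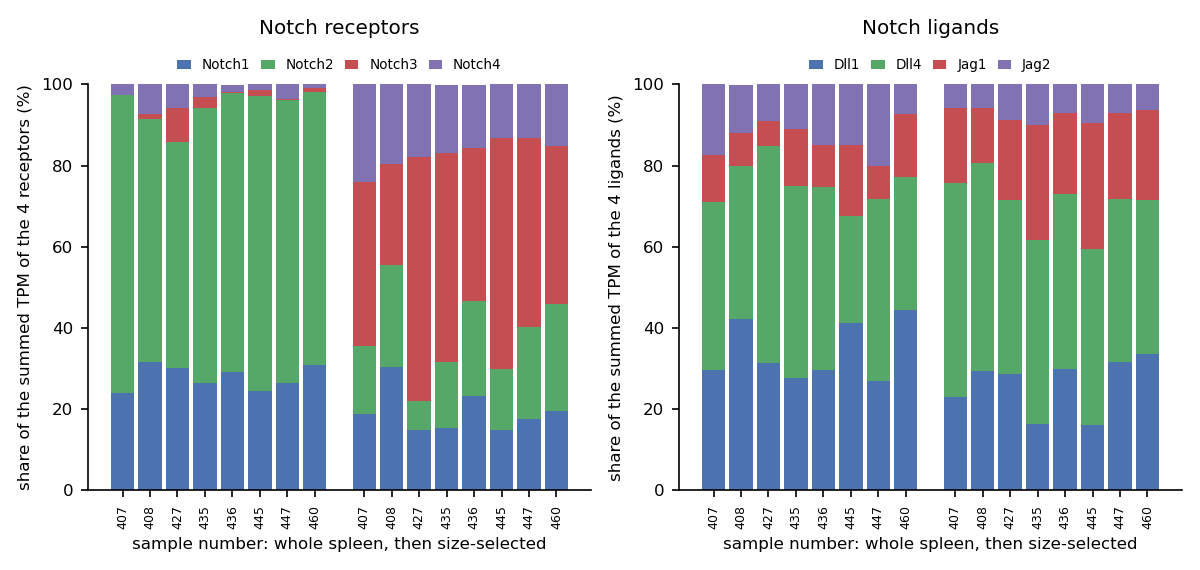
Share of the summed TPM of the 4 receptors (left) and of the 4 ligands (right) in percent (vertical axis), 1 stacked bar per sample (horizontal axis, whole spleen first, males before females). Notch2 (green, left) makes up 55.6 to 73.4% of the receptors in whole spleen and at most 26.2% in size-selected samples, where Notch3 (red, left) makes up 25.0 to 60.1%.

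Other genes of the pathway were read by role from a list of 56 further genes, of which 51 could be tested. Of these, 23 were called higher and 14 lower, and 14 were not called, with a median log2 fold change of 0.11, close to that of all genes tested. These counts and those by role below stand beside shares of 37.5% of all genes called higher and 30.4% lower, and nothing particular to the pathway is read from them.

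Among the other targets, 3 of the 7 tested were called higher and 3 lower. Hey2 and Heyl, 2 further Hey family repressors known from vascular and mural cells, were 5.12 ± 2.23 against 0.0697 ± 0.150 CPM and 40.2 ± 16.6 against 0.850 ± 0.877 CPM (SD, n = 8 each). In edgeR Hey2 rose by 6.01 on the log2 scale (standard error 0.62, adjusted p = 9.61e-08) and Heyl by 5.58 (standard error 0.47, adjusted p = 7.09e-09). The whole spleen level of Hey2 rests on at most 6 counts in any sample, so its fold is imprecise: leaving out 1 number gave log2 fold changes from 5.69 to 7.44, the highest without number 435. Nrarp, a feedback inhibitor that Notch induces, was 36.1 ± 9.81 against 9.36 ± 2.33 CPM (SD, n = 8 each, log2 fold change 1.95, edgeR adjusted p = 3.12e-08). These 3 genes were higher in 8 of 8 pairs. Dtx1, a Notch target in marginal zone B cells, was lower, at 96.9 ± 30.4 against 155 ± 12.6 CPM (SD, n = 8 each, log2 fold change -0.68, edgeR adjusted p = 0.00117, lower in 8 of 8 pairs), and it was not called in males alone (log2 fold change -0.69, edgeR adjusted p = 0.0759). Dtx1 and Cr2 are also on the marginal zone B cell list. The other targets called lower were Hes5, at 1.93 ± 0.901 against 3.35 ± 0.558 CPM (SD, n = 8 each, log2 fold change -0.79, edgeR adjusted p = 0.0121), and Myc (-0.29, edgeR adjusted p = 0.0119), each lower in 8 of 8 pairs and named here after its values were seen. In the same samples, Hey2, Heyl and Nrarp thus rose, Dtx1, Hes5 and Myc fell, and Cr2 did not pass the test.

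Dner, an atypical ligand, was the only 1 of 4 further ligand or ligand-like genes with enough counts to test. It was 3.57 ± 1.47 against 0.0260 ± 0.0526 CPM (SD, n = 8 each, log2 fold change 6.67, edgeR adjusted p = 4.59e-09), with at most 2 counts in any whole spleen sample. Leaving out 1 number gave log2 fold changes of Dner from 6.46 to 7.45, the highest without number 436. Over all alternatives they ran from 6.03 to 8.38. The ubiquitin ligases that make ligands competent for signalling had 3 of 4 called higher and 1 lower. Mib2 rose by a log2 fold change of 1.56 (SE 0.17), Neurl1b by 1.49 (SE 0.39) and Mib1 by 1.05 (SE 0.14), with edgeR adjusted p of 2.7e-07, 0.00244 and 2.86e-06. Mib1 was 33.0 ± 6.60 against 15.9 ± 2.87 CPM (SD, n = 8 each) and rose in 8 of 8 pairs, as did Mib2. Neurl1b was low in both groups, at 2.16 ± 1.25 against 0.757 ± 0.321 CPM, and rose in 7 of 8 pairs. The one called lower was Neurl3, named here after its values were seen, at 240 ± 58.7 against 409 ± 50.8 CPM (SD, n = 8 each, log2 fold change -0.77, edgeR adjusted p = 9.71e-05, lower in 8 of 8 pairs).

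Of 10 genes of receptor cleavage, 5 were called higher and 3 lower, and only Aph1b, a gamma-secretase subunit, changed by at least 1 on the log2 scale (1.73, SE 0.24, edgeR adjusted p = 5.13e-06, 8 of 8 pairs). Aph1b and its close relative Aph1c may share reads, so their split is uncertain. Of 9 genes of receptor trafficking and turnover, 5 were called higher and 1 lower, among them the Notch inhibitors Numbl (2.86, SE 0.30, edgeR adjusted p = 1.17e-07) and Numb (1.46, SE 0.12, edgeR adjusted p = 6.33e-09), both higher in 8 of 8 pairs. The genes that add sugars to the receptors had 3 of 5 called higher and 1 lower, none by 1 or more on the log2 scale. With the number as a replicate block 2 were called lower. These calls depend on the constants: the gene called lower, Mfng, had a log2 fold change of -0.68 on deposited counts (edgeR adjusted p = 0.00018) and of 0.0247 on restored counts (edgeR adjusted p = 0.877). Of the 51 further genes tested, Mfng, Rfng and Hdac1 lost their calls on restored counts and Lfng, Ep300, Dtx2 and Aak1 gained one, all named here after their values were seen.

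Among the nuclear genes, 2 of the 7 tested members of the activating complex were called higher and 2 lower. Rbpj, the DNA-binding partner of every Notch receptor, was 51.8 ± 8.71 against 55.4 ± 8.53 CPM (SD, n = 8 each), which edgeR put at -0.10 on the log2 scale (standard error 0.12, adjusted p = 0.482), within the spread, and scaling by library totals alone turned its sign (0.0298). The Mastermind coactivators split: Maml3 was higher (1.09, SE 0.16, edgeR adjusted p = 1.02e-05, 8 of 8 pairs) and Maml1 lower (-1.09, SE 0.16, edgeR adjusted p = 9.08e-06, 8 of 8 pairs). Of the 8 repressor genes, 1 was called higher and 3 lower, with Ncor1, a corepressor, at an edgeR log2 change of -1.06 (standard error 0.14, adjusted p = 2e-06). Ncor1 carries 2 constants, and on restored counts its log2 fold change was -0.69.

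**Figure D4:**
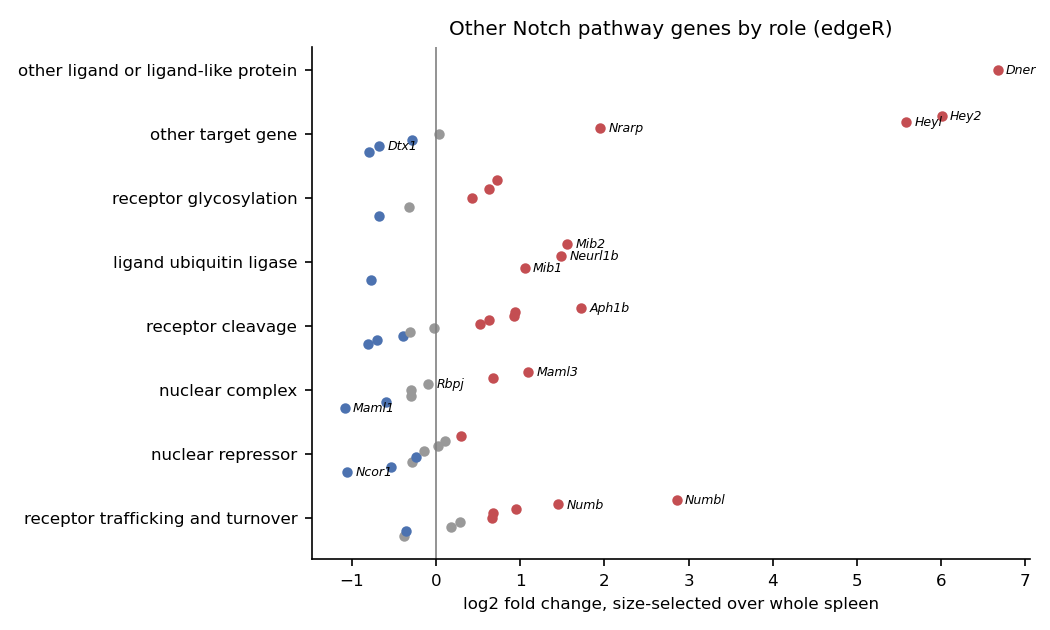
Log2 fold change between size-selected samples and whole spleen (horizontal axis) for the 51 further pathway genes tested, by role (vertical axis), with genes called higher in red, called lower in blue and not called in grey. Only the genes named by the rule in the methods carry labels. The values run from -1.09 for Maml1 to 6.67 for Dner, and only Dner, Hey2 and Heyl exceed 3.

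The sexes were compared within each fraction, with 4 males and 4 females. None of the 10 genes was called in either fraction or in the interaction of sex and fraction, where edgeR called 0.194% of genes in whole spleen, 0.0397% in size-selected samples and 0 in the interaction. For the interaction, 744 genes of 15760 had an unadjusted p under 0.05, and DESeq2 called 3 genes, none of them a member. Notch3 had too few counts to be tested between the sexes in whole spleen. The levels of the sexes did not overlap for Notch2 in size-selected samples and for Hes1 in whole spleen. Of the 14510 genes of the fraction comparison, females lay above all males in 2.34% and males above all females in 1.12% in size-selected samples, and in 4.5% and 4.14% in whole spleen. With 1 of 10 members separated in each fraction, nothing is read from these counts.

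Notch2 in the size-selected samples was at 78.8, 62.8, 70.6 and 108 CPM in the females 436, 445, 447 and 460, and at 45.4, 39.0, 31.5 and 49.4 CPM in the males 407, 408, 427 and 435. Every female sample lay above every male sample. The female mean was 80.0 ± 19.5 and the male mean 41.3 ± 7.82 CPM (SD, n = 4 each), a log2 difference of 0.92 (SE 0.22) with an unadjusted edgeR p of 0.00176 and an adjusted p of 0.965 over 15127 genes. DESeq2 gave an adjusted p of 0.0627, the lowest of the alternatives, which reached 1.00. In whole spleen the female mean was 56.0 ± 7.92 and the male mean 42.6 ± 6.99 CPM (SD, n = 4 each), with an overlap between the sexes (log2 difference 0.39, edgeR adjusted p = 0.217). In females alone Notch2 was called higher in size-selected samples (log2 fold change 0.51, SE 0.17, edgeR adjusted p = 0.0196), as were 36% of the genes tested, and in males alone it was not (-0.11, edgeR adjusted p = 0.642). The difference between these effects, the interaction, was 0.55 (SE 0.26) with an unadjusted edgeR p of 0.046 and an adjusted p of 1.00, so it did not hold after correction. This fit leaves out the pairing by number. With the number as a replicate block the interaction was 0.54 (edgeR adjusted p = 0.834). The summed B cell level of the size-selected samples was 1683 to 2198 CPM in females and 904 to 3325 in males.

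Hes1 in whole spleen was at 19.8, 12.4, 17.0 and 16.2 CPM in the females 436, 445, 447 and 460, and at 29.0, 28.1, 25.6 and 38.8 CPM in the males 407, 408, 427 and 435. Here every male sample lay above every female sample. The female mean was 16.3 ± 3.05 and the male mean 30.4 ± 5.79 CPM (SD, n = 4 each), a log2 difference of -0.90 (SE 0.18, edgeR adjusted p = 0.0679), short of the threshold. The call depended on the settings: DESeq2, the absence of a count filter and leaving out number 427 or 436 each called Hes1 lower in females, with adjusted p from 0.000717 to 0.228 over all alternatives. The dissociation response sum in whole spleen was 3064 to 3929 CPM in females and 4172 to 4341 in males, also without overlap, and its part in the Hes1 difference was not tested. Junb (mean 1215 CPM) and Nr4a1 (1056 CPM), neither called between fractions, weighed most in that whole spleen sum. Fos (116 CPM), Jun (49.6 CPM) and Fosb (16.7 CPM) added little, so the sum hardly measures these 3 genes there. In size-selected samples the Hes1 levels of the sexes overlapped, and the interaction was 0.77 (SE 0.31) with an unadjusted edgeR p of 0.0231 and an adjusted p of 1.00. That fit has no block either, and with the number as a replicate block the interaction was 0.83 (edgeR adjusted p = 0.717).

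**Figure D5:**
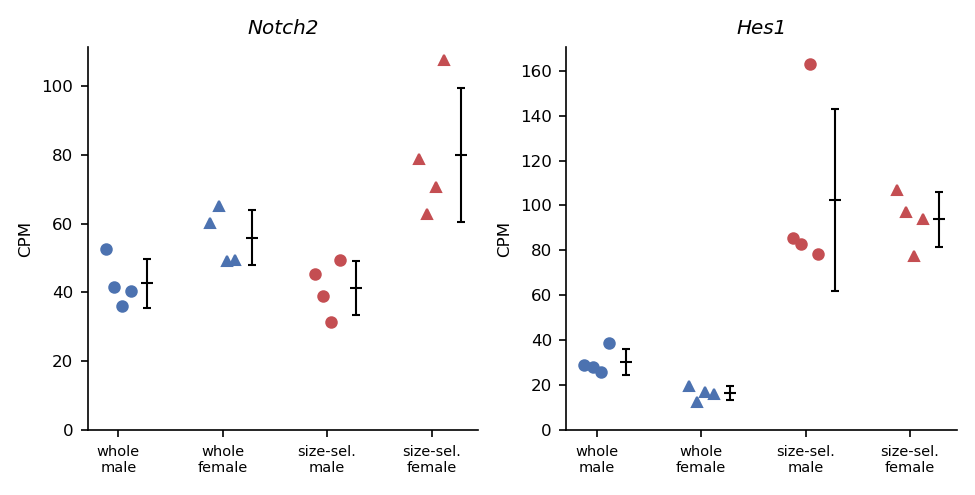
CPM of Notch2 (left) and Hes1 (right) in each sample (vertical axis) by fraction and sex (horizontal axis), with circles for males, triangles for females, blue for whole spleen, red for size-selected, and the mean with its SD (n = 4) to the right of each group. Size-selected Notch2 runs from 31.5 to 49.4 in males and from 62.8 to 108 in females, and whole spleen Hes1 from 25.6 to 38.8 in males and from 12.4 to 19.8 in females.

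The genes whose pattern over the 16 samples was most like that of each member were found by the root mean square difference in centred log2 CPM, among 9306 or 9307 genes with enough counts. Dll4 was nearest to Robo4 (0.22), an endothelial receptor gene, and to Lifr (0.25). Notch4 was nearest to Nrp1 (0.44) and Adgrf5 (0.45), and Dll1 to Dab2 (0.36) and Flt1 (0.37), of which Flt1 encodes a VEGF receptor. Jag1 was nearest to Mcam (0.42), an adhesion gene on the mural marker list, and to Gm13889 (0.43). Notch3 was nearest to the matrix genes Lamb2 (0.78) and Ltbp4 (0.81), the loosest matches of the 10. Notch1 was nearest to Slc36a4 (0.18), the closest match of the 10, and to Ggta1 (0.18), and Notch2 to Abhd2 (0.22) and Ahctf1 (0.22). Jag2 was nearest to Ryk (0.32) and Clstn1 (0.35), Hes1 to Cdkn1a (0.24) and Pdlim7 (0.25), and Hey1 to Mpzl1 (0.33) and Epn2 (0.36). The measure is dominated by the difference between fractions, and it is a description of these 16 libraries.

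The authors' deposited table lists 2201 genes, whose log2 fold changes start at 3.50, and 5 of the 10 genes are among the rows used here. Jag2 is not among them, although its log2 fold change of 3.74 here is above that start. In the authors' deposited table the log2 fold changes are 6.91 for Notch3, 5.55 for Jag1, 4.58 for Dll4, 4.24 for Dll1 and 3.75 for Notch4. Notch4 is the one that is lower there than in the edgeR fit, at 4.58, by more than its standard error. The base mean of Notch4 in the authors' deposited table is 252, where the deposited counts give 315. Further rows of the authors' deposited table are Dner (6.27), Hey2 (6.12) and Heyl (5.53). The mean TPM of Notch3 in the authors' deposited table is 17.3 in size-selected samples and 0.12 in whole spleen, lower than the values computed here over exonic length, and that of Dll4 is 43.3 and 1.06.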

How the data were processed

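RNA-seq of 8 size-selected and 8 whole spleen samples was analysed from the deposited tables. Per the submitters' processing notes, the authors used Trim Galore, STAR, RSEM and DESeq with build mm10; the versions are not given in the sources used here. The deposited count table holds estimated counts per gene, the authors' RSEM output by that note. For 3898 genes the size-selected values are products of those counts and 1 or more constants of the column, found from the values alone, and division by them gives restored counts. The authors' deposited second table holds per gene a base mean (signal), a log2 fold change with standard error, a test score, p-values, and mean TPM and FPKM per group, per the file headers. Its FPKM were not used.

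Estimated counts were rounded and tested with edgeR 4.0.16 (R 4.3.3): filterByExpr (minimum count 10), TMM, quasi-likelihood F test, Benjamini-Hochberg adjustment over all genes tested. Log2 CPM used a prior count of 2. TPM over exonic length used GENCODE M21 on GRCm38, which held 54809 of the 54838 identifiers. Coordinates are 1-based. Where a marker symbol had 2 rows (Ccl19, Ccl21a), the row with the larger total was used, and Ahsp was not analysed here. The fits were tested on simulated data.

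Samples with the same number deviated together from their group means (correlation across genes 0.208 on average, from 0.12 to 0.375, against -0.0287 for other numbers), and every one of the 8 pairs was above 0.1, so the numbers, which come from the labels, pair the samples. The main fit has no block. Alternatives were DESeq2 1.42.0, limma-voom (limma 3.58.1), the block, sex as a covariate, RLE scaling, library totals, other filters, restored counts, single sexes and leaving out each number. All 10 members are named, and of the further pathway genes those called and changed by 1 or more on the log2 scale, plus Rbpj, Nrarp, Dtx1, Heyl and Hey2, and up to the first 3 of each marker list. Members, lists and this rule were chosen with earlier results of these data known.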

Additional observations from a re-analysis of the deposited data

Results flagged for a closer look

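Among 50 groups of 8 samples screened, 6 held 1 sample that stood apart from the rest by more than Dixon's 95% limit, where chance gives about 1 in 20, or 2.5. Size-selected sample 408 was low for Notch3 (4.87 log2 CPM, the other samples 6.36 to 7.66) and for Jag1 (4.95, the others 5.89 to 6.59). It had the lowest mural, endothelial, mesothelial, macrophage and dendritic cell marker sums of its group. Size-selected sample 427 was high for Hes1 (7.35, the others 6.28 to 6.74). It had the highest dissociation response sum, and also the highest mural, endothelial, fibroblastic and dendritic cell sums. In whole spleen, sample 407 was low for Hey1 (1.16, the others 1.92 to 2.52), sample 427 for Neurl1b (-1.76, the others -0.41 to 0.37) and sample 435 for Rbpj (5.30, the others 5.75 to 6.13). The part of the marker levels was not tested.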

How the results depend on the processing

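Between fractions, the 9 genes called higher kept their direction and their call under every alternative run. Notch2 stayed without a call except in females alone (0.51) and reversed in males alone (-0.11), and without number 460 it was 0.13. Notch3 was 8.13 in females alone and 6.10 in males alone. Of the further pathway genes named, Dtx1 lost its call in males alone and Rbpj reversed under library totals (0.0298), a scaling that moves the median log2 fold change of all genes from 0.05 to 0.18. In males alone 2799 genes were called lower. The replicate block changed no call of a member, and it added calls for 4 further pathway genes, Lfng, Ep300, Spen and Dtx3l. Jag2 on restored counts was 18.3 TPM and Dll4 86.7 TPM.

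Between the sexes in whole spleen, 273 genes were called with no count filter, 521 by DESeq2 and 7 to 261 when 1 number was left out (261 without number 427 and 7 without number 460), against 26. Of the members, 1 (Hes1) was called lower in females with no count filter and by DESeq2, and 0 to 1 when 1 number was left out (1 without 427 or without 436). In size-selected samples DESeq2 called 22 genes, against 6. In the interaction DESeq2 and the replicate block each called 3 genes, and leaving out 1 number gave 0 to 1 (1 without number 445). Log2 sex differences that crossed 0 when 1 number was left out were, in whole spleen, Jag1 (-0.0786 to 0.33) and Jag2 (-0.23 to 0.19). In size-selected samples they were Notch3 (-0.0871 to 0.66), Notch4 (-0.32 to 0.0461), Dll4 (-0.25 to 0.0564), Jag2 (-0.16 to 0.40), Hes1 (-0.23 to 0.13) and Hey1 (-0.16 to 0.37). In the interaction they were Notch1 (-0.0181 to 0.21), Jag2 (-0.17 to 0.41) and Hey1 (-0.55 to 0.0288). None of these values was called in any of these fits, and the cause of each change was not tested. Notch3 in whole spleen, with at most 51 counts, and Dner and Hey2, with at most 2 and 6, are limited by depth.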
